A study of Mus musculus with 192 samples.

Results

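Rsad2, Cmpk2, Samhd1 and Isg20 encode enzymes that act on nucleotides or on RNA during antiviral defence, and their levels are described here in mouse dendritic cells given 7 ligands of innate immune receptors. The genes were chosen by name with earlier results of these data known, and the rule itself uses no measured value. They are 4 of the 23481 genes in the count table, and each was among the 4720 genes abundant enough to be tested. The cells were dendritic cells grown with GM-CSF (15 ng/mL) from the bone marrow of female C57BL/6J mice aged 6 to 8 weeks, and RNA was taken after 6 hours with the ligands. The series has 64 groups of 3 libraries, which are Ctrl, 7 single ligands, 21 pairs and 35 triplets. Ligand names follow the labels, and they are PAM, HMW, LPS (lipopolysaccharide), Zymosan (listed there as depleted), SeV, cGAMP (listed as 3',3'-cGAMP, a cyclic dinucleotide) and CpGB. All groups share the genotype, the GM-CSF culture and the 6 hours, and the labels give no ligand dose and do not say what the Ctrl cells received. The labels do not say whether the 3 libraries of a group came from separate cultures or animals, so every p-value below measures only the spread between these libraries. Where a result is given without replicate 1, 2 or 3, all 64 libraries of that number were left out, unless 1 group is named.

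Type I interferon, released when innate sensors detect nucleic acid or bacterial products, binds a receptor that activates transcription factors, Stat2 and Irf9 among them, and these switch on a large set of antiviral genes. Rsad2 encodes viperin, a radical SAM enzyme that converts CTP into a chain-terminating nucleotide analogue. Cmpk2 encodes a mitochondrial nucleoside monophosphate kinase that phosphorylates CMP, UMP and their deoxy forms. Samhd1 encodes a triphosphohydrolase that breaks down deoxynucleoside triphosphates and so limits reverse transcription. Isg20 encodes an exonuclease that degrades single-stranded RNA and DNA.

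Rsad2 and Cmpk2 are neighbours that point away from each other, and their promoters are shown because the levels of these 2 genes had the highest correlation among the members. On GRCm38 (mm10), Rsad2 (ENSMUSG00000020641.16) lies on the minus strand at chr12:26442746-26456452 and Cmpk2 (ENSMUSG00000020638.8) on the plus strand at chr12:26469204-26479837. Their annotated start sites are 12752 bases apart, with 0 annotated genes between them. Samhd1 (ENSMUSG00000027639.16) lies on the minus strand at chr2:157097533-157135265, and Isg20 (ENSMUSG00000039236.18) on the plus strand at chr7:78913424-78920396. The 250 bases before each RefSeq start (GRCm38.p6) were searched on both strands for 1 motif, the interferon-stimulated response element written as GAAA, any 2 bases and GAAA again. The Rsad2 window (chr12:26456453-26456702, minus strand) held 1 match, in capitals below, whose first base is 120 bases before the start. The windows of Cmpk2 (chr12:26468965-26469214, plus strand) and Samhd1 and the 3 windows of Isg20 held 0. Of 32851 mouse windows of the same length, 2.98% held a match. A match is a string of letters and was not measured as a binding site.
Rsad2: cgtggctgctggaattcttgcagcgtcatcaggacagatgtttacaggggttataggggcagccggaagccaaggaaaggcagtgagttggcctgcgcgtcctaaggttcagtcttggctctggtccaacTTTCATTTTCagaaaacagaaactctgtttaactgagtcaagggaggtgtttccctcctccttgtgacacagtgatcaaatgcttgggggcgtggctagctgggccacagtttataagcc
Cmpk2: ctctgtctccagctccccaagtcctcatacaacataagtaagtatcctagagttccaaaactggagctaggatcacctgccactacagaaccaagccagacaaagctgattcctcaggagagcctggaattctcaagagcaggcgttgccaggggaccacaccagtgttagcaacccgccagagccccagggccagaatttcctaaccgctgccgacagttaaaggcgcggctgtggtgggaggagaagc

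Libraries held 46564 to 610234 UMIs (unique molecular identifiers, each marking 1 original cDNA molecule), with a median of 171616. The Ctrl libraries were among the shallowest, with 61823 to 89530. All 9 listed dendritic cell markers were detected, and Itgax, Cd74 and the listed class II genes had counts in every library. Flt3 (95 UMIs in all libraries together) and Zbtb46 (99) were sparse, at 0 in 124 and 121 libraries. The listed macrophage markers Csf1r and Cd68 and neutrophil markers S100a8 and S100a9 also had counts in every library. Of the 5 listed lymphocyte markers, Cd3e was at 0 in every library and the other 4 had at most 40 UMIs in all libraries together. The summed level of the listed macrophage markers was highest in Ctrl, at 2858 to 2993 CPM (counts-per-million of UMIs) against a median of 1173 over all libraries. The summed level of the 3 listed plasmacytoid dendritic markers was 48.5 to 72.5 CPM in Ctrl against a median of 127.6 over all libraries. Most of that sum was 1 gene, Tcf4, with 4128 UMIs in all libraries together against 35 for Siglech and 89 for Ccr9. The part of these shifts in the results was not tested. These are bulk samples, so fewer cells of a type and less RNA per cell cannot be told apart. Levels are given below in CPM, scaled for library composition.

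All 4 enzymes were higher with LPS, SeV, cGAMP and CpGB than in Ctrl, and cGAMP gave the highest mean of each. A gene was called against Ctrl at an adjusted p under 0.05 in edgeR's quasi-likelihood test with a log2 fold change of at least 1. By this rule 4 of 4 members were higher with LPS, where 14.6% of all tested genes were, with SeV (10.5%), with cGAMP (11.7%) and with CpGB (10.8%). With HMW 1 of 4 was called, Cmpk2, against 0.953% of tested genes. With PAM (8.01%) and Zymosan (4.43%) the count was 0 of 4. The median log2 fold change of the 4 members was 4.08 with cGAMP, 3.81 with SeV, 3.80 with LPS and 2.19 with CpGB, beside -0.09, -0.08, -0.06 and -0.03 over all tested genes.

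Rsad2 was at 720, 698 and 490 CPM in the 3 Ctrl libraries. It stood at 11059, 11786 and 12091 CPM with cGAMP, at 8696, 8531 and 9108 with SeV, and at 7593, 8635 and 9141 with LPS. With CpGB it was at 1747, 2997 and 2628 CPM. These 4 ligands had every library above every Ctrl library, and the CpGB libraries lay far below those of the other three. The log2 fold change was 4.22 (SE 0.19, adjusted p = 2.28e-53) with cGAMP, 3.81 (SE 0.19, adjusted p = 3.63e-47) with SeV, 3.76 (SE 0.19, adjusted p = 6.13e-47) with LPS and 1.99 (SE 0.20, adjusted p = 8.02e-18) with CpGB. With Zymosan the value was 0.68 (SE 0.21, adjusted p = 0.0235), under the fold threshold, and the libraries overlapped Ctrl. With HMW it was 0.73 (adjusted p = 0.0512) and with PAM 0.36 (adjusted p = 0.288).

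Cmpk2 had the widest range of the 4 in log2 fold change. Its Ctrl libraries were at 208, 187 and 182 CPM, and those with cGAMP at 5300, 6100 and 5941. SeV gave 4319, 4491 and 4292 CPM, LPS 3588, 3863 and 4117, and CpGB 815, 1128 and 1024. No library of these ligands overlapped Ctrl. The log2 fold change was 4.91 with cGAMP (SE 0.23, adjusted p = 4.63e-53), 4.51 with SeV (SE 0.23, adjusted p = 6.83e-47), 4.33 with LPS (SE 0.23, adjusted p = 8.18e-45) and 2.39 with CpGB (SE 0.26, adjusted p = 1.55e-15). HMW gave 416, 502 and 265 CPM, which is 1.04 higher on the log2 scale (SE 0.29, adjusted p = 0.0393). The call was lost without HMW replicate 2 (0.81, adjusted p = 0.408), without any 1 of the Ctrl libraries (adjusted p from 0.0872 to 0.194), with DESeq2 as the test (0.97), with RLE in place of TMM scaling, and after thinning every library to the lowest total. With Zymosan (0.83, adjusted p = 0.0677) and PAM (0.62, adjusted p = 0.168) the 3 libraries lay above Ctrl but were not called. The Zymosan value was called with no filter on low counts (1.01, adjusted p = 0.00222) and without Zymosan replicate 3 (1.10, adjusted p = 0.0162).

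Samhd1 was the member with a negative log2 fold change with PAM. It was at 374, 449 and 557 CPM in Ctrl and at 276, 297 and 261 with PAM, so every PAM library was below every Ctrl library. The log2 fold change of -0.75 (SE 0.23, adjusted p = 0.00887) passed the p threshold but not the fold threshold. With Zymosan it was -0.36 (adjusted p = 0.364), with libraries at 248, 454 and 364 CPM that overlapped Ctrl. Samhd1 was higher with cGAMP (2082, 2290 and 2148 CPM) and SeV (2122, 2315 and 2050 CPM), by log2 fold changes of 2.21 (SE 0.18, adjusted p = 2.19e-24) and 2.20 (SE 0.18, adjusted p = 4.99e-24). LPS gave 1563, 1579 and 2188 CPM (1.93, adjusted p = 9.17e-20) and CpGB 951, 1031 and 1097 CPM (1.14, adjusted p = 2.1e-07). All libraries of these 4 ligands were above Ctrl. The CpGB value fell under the fold threshold when libraries were scaled by total alone (0.92) or thinned to equal totals (0.83).

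Isg20 was the member measured with the fewest molecules. The Ctrl libraries held 2, 3 and 0 UMIs. The count of 0 in a library of 89530 UMIs allows a level of up to 33.5 CPM before scaling for composition. The libraries with cGAMP were at 394, 263 and 295 CPM, with LPS at 328, 255 and 291, with SeV at 277, 268 and 295 and with CpGB at 146, 138 and 231. All of them lay above the highest Ctrl library, at 37.4 CPM. Log2 fold changes were 3.94 (SE 0.50, adjusted p = 8.45e-12), 3.84 (SE 0.50, adjusted p = 1.64e-11), 3.80 (SE 0.51, adjusted p = 1.07e-10) and 3.13 (SE 0.56, adjusted p = 1.05e-06) in that order. With PAM, Zymosan and HMW the libraries held 2 to 11 UMIs and overlapped Ctrl.

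**Figure D1:**
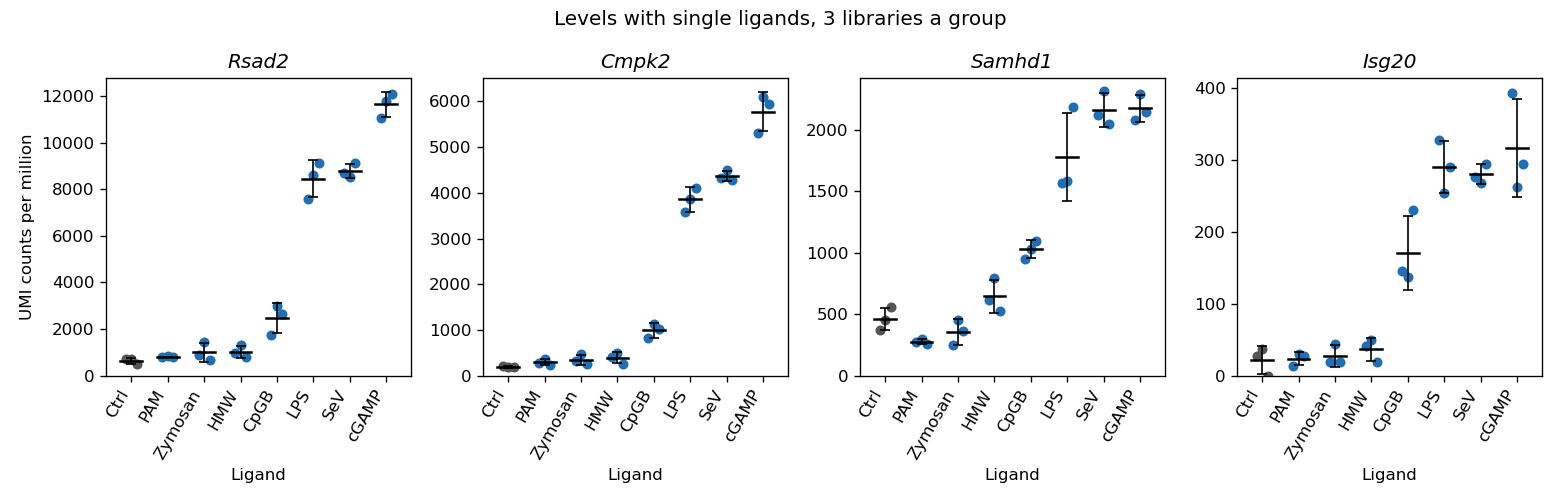
CPM of each enzyme gene (y axis, from 0) in Ctrl and with each single ligand (x axis); points are libraries, bars the mean and SD of 3. All libraries with CpGB, LPS, SeV and cGAMP lie above those of Ctrl for all 4 genes, and for Samhd1 the PAM libraries at 261 to 297 lie below Ctrl.

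Direct comparisons between single ligands split them into a low and a high set with CpGB between them. Of 84 tests over the 21 ligand pairs and 4 genes, 62 passed an adjusted p of 0.05, beside 18.8% of all gene tests. Rsad2 and Cmpk2 were ordered cGAMP, SeV, LPS, CpGB, HMW, Zymosan, PAM. For Rsad2 the neighbours cGAMP and SeV (adjusted p = 0.19), SeV and LPS (0.891), HMW and Zymosan (0.931) and Zymosan and PAM (0.293) did not pass the test. The same neighbours did not pass for Cmpk2, with adjusted p from 0.189 to 0.692. For Samhd1 the neighbours cGAMP and SeV (adjusted p = 1), SeV and LPS (0.238) and Zymosan and PAM (0.257) did not pass. Within the low set, Samhd1 was higher with HMW than with Zymosan (adjusted p = 0.000397) or PAM (2.25e-08), with no overlap of libraries. Isg20 did not differ detectably between CpGB and LPS (log2 difference 0.71 with LPS higher, SE 0.25, adjusted p = 0.0631) or between CpGB and SeV (0.67, adjusted p = 0.0652).

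Almost every combination raised the enzymes, and the exceptions were combinations of PAM, Zymosan, HMW and CpGB. In pairs 75 of 84 member tests were called higher than Ctrl, beside 13.7% of all tests, and 1 was called lower (8.44% of all tests). In triplets 137 of 140 were called higher (15.7% of all tests). The lower call was Samhd1 with PAM+Zymosan, at 137, 317 and 225 CPM, all below Ctrl (log2 fold change -1.0, SE 0.24). It was lost without replicate 3 (-0.81, adjusted p = 0.102) or replicate 1 (-0.88), with no filter on low counts (-0.83) and after thinning (-0.93). The other members did not pass with this pair, where Rsad2 was at 674, 788 and 679 CPM. Over all 64 groups the highest mean was 16725 ± 286 CPM (SD, n = 3) for Rsad2 and 7521 ± 454 for Cmpk2, both with PAM+cGAMP. The highest mean of Samhd1 was 2724 ± 442 CPM with HMW+SeV+cGAMP, and that of Isg20 was 453 ± 133 with PAM+LPS.

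Presence of LPS, SeV or cGAMP separated the levels, a split seen in the values and given without a test. The 15 groups without any of these ligands had Rsad2 means of 636 to 4883 CPM, and the 49 groups with at least 1 had means of 6350 to 16725. Cmpk2 ranged from 192.4 to 1910 CPM in the former and from 2535 to 7521 in the latter. For Samhd1 the ranges were 226 to 1116 and 1098 to 2724 CPM, with PAM+Zymosan+SeV the 1 group of the 49 inside the lower range. For Isg20 they were 20.3 to 171 and 167 to 453 CPM, with Zymosan+SeV the 1 group inside.

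**Figure D2:**
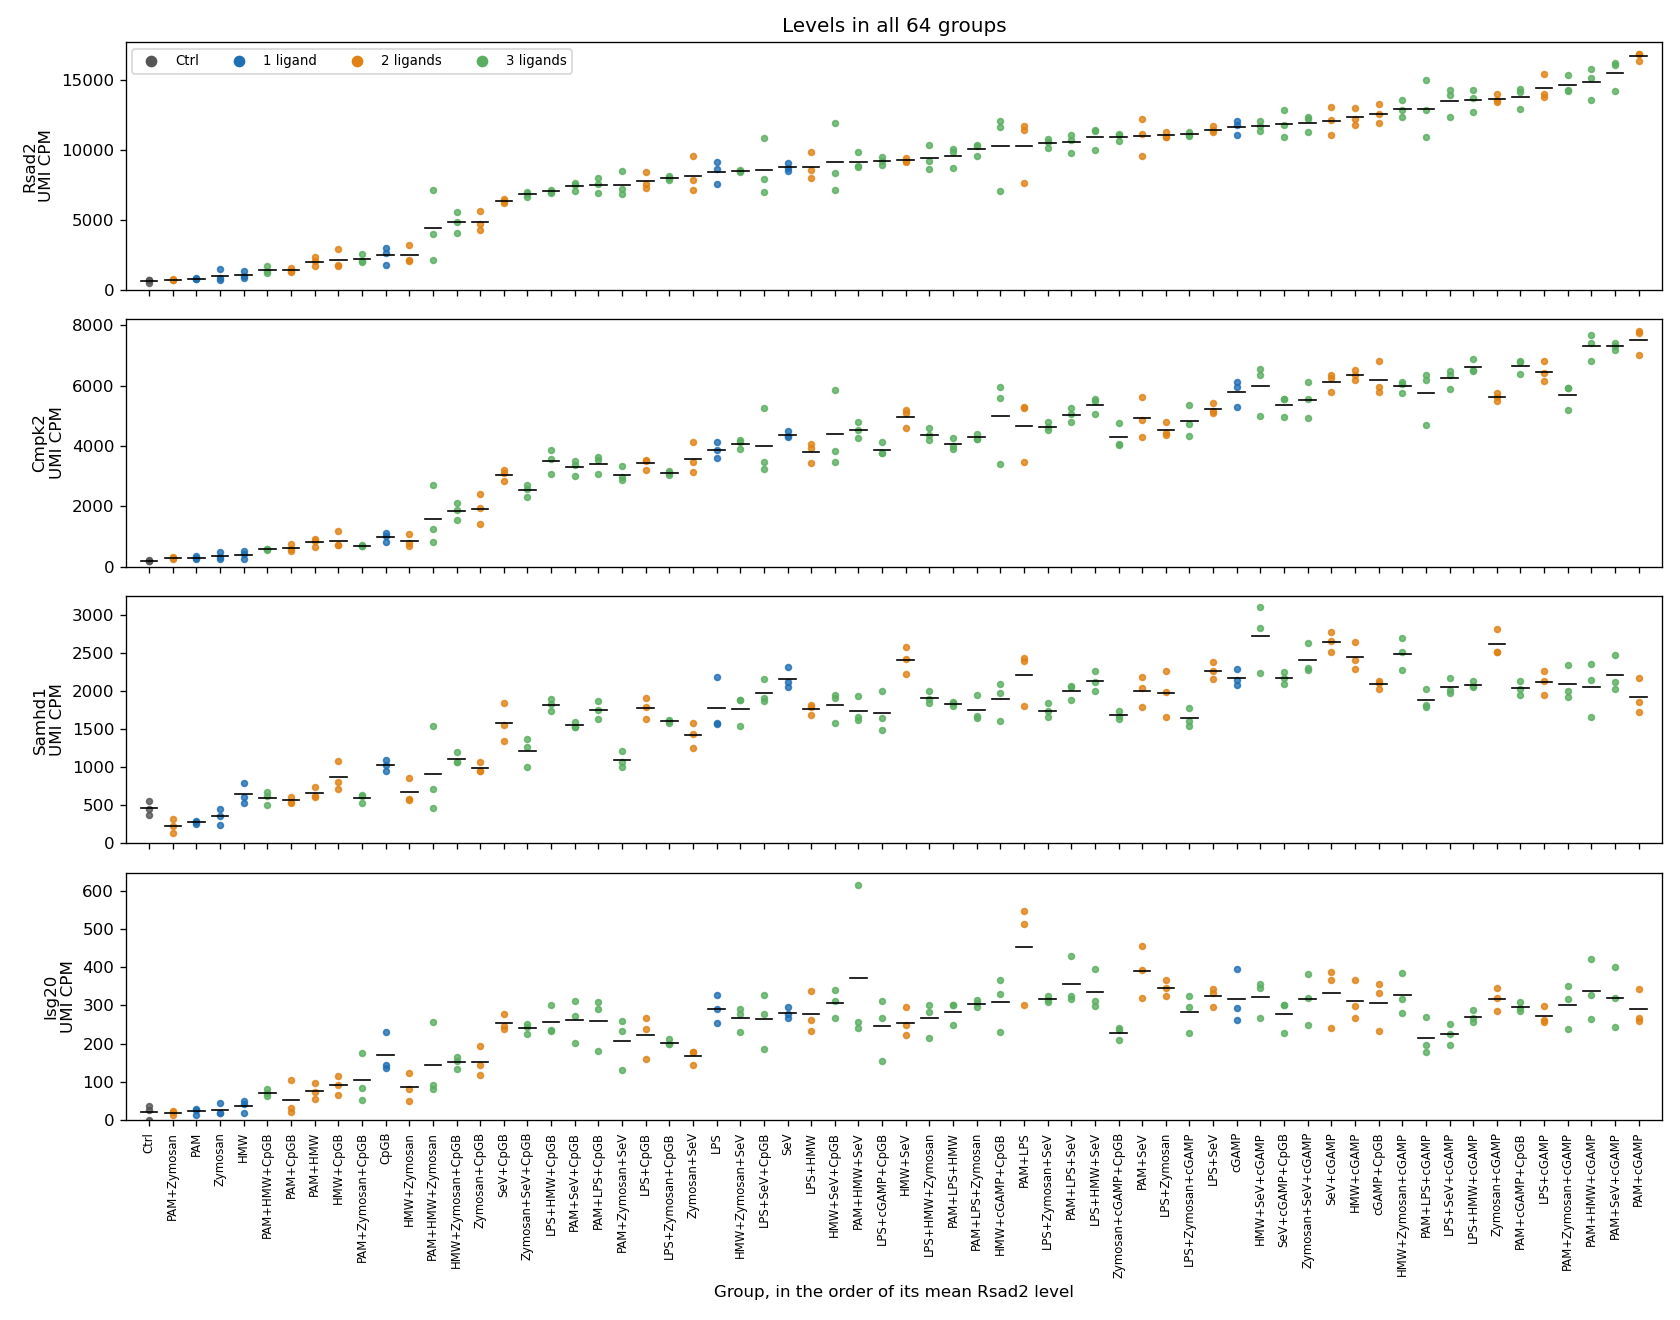
CPM of each gene (y axes, from 0) in all 64 groups, ordered by mean Rsad2 level (x axis); points are libraries coloured by the number of ligands and bars are means of 3. Rsad2 and Cmpk2 step up from at most 4883 and 1910 to at least 6350 and 2535 at the first group that holds SeV, LPS or cGAMP.

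Joining ligands that each gave a high level did not multiply their effects. A pair interaction is the log2 level of the pair minus those of both single ligands plus that of Ctrl, so that 0 means that the log2 effects add. Of 84 member interactions 28 were negative at an adjusted p under 0.05 (3.5% of all tests) and 1 was positive (1.08%). The 6 pairs among LPS, SeV, cGAMP and CpGB were negative for all 4 members. For SeV+cGAMP, Rsad2 was at 12157, 11087 and 13108 CPM, a range that overlaps the cGAMP libraries, and its interaction was -3.75 (SE 0.24, adjusted p = 1.04e-33). Without replicate 3, Isg20 lost the call for SeV+CpGB (adjusted p = 0.0662) and cGAMP+CpGB (0.0955), and after thinning Samhd1 lost that for cGAMP+CpGB (-0.82, adjusted p = 0.0505). The other 4 negative calls were Rsad2 and Cmpk2 with PAM+CpGB (-1.18 and -1.32) and with HMW+CpGB (-0.93 and -1.23). Both HMW+CpGB calls were lost with RLE scaling and without replicate 2 or 3, that of Rsad2 also after thinning, and the Rsad2 call with PAM+CpGB was lost without replicate 3 (adjusted p = 0.0708). Interactions use Ctrl and both single ligands and therefore share samples with the comparisons above. The positive one was Samhd1 with PAM+LPS, at 1804, 2399 and 2436 CPM, where the interaction was 1.07 (SE 0.26, adjusted p = 0.0017), a call lost without replicate 3 (0.92, adjusted p = 0.124) and after thinning (0.89, adjusted p = 0.066). Three-way interactions, the triplet and its 3 single ligands minus its 3 pairs and Ctrl, were positive in 17 of 140 tests (0.803% of all tests) and negative in 0. These terms share the same single and pair groups. Of the 17, 15 belonged to triplets drawn from LPS, SeV, cGAMP and CpGB, and the other two were Rsad2 and Cmpk2 with HMW+SeV+CpGB. Without replicate 3 the count was 10, and that of Cmpk2 with HMW+SeV+CpGB was lost without any of the 3 replicate numbers (adjusted p from 0.101 to 0.15).

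Levels above those of both single ligands were found mainly among weak ligands. A pair was called above both when it exceeded each of them at least 2-fold (1 on the log2 scale) with an adjusted p under 0.05, which held for 3 of 84 member tests and 0.353% of all tests. With HMW+Zymosan, Rsad2 was at 2073, 2154 and 3233 CPM, above all libraries of HMW (981, 1309 and 809) and Zymosan (874, 1465 and 695). It exceeded the higher single ligand by 1.27 (adjusted p = 1.57e-09). Cmpk2 was called with HMW+Zymosan (693, 791 and 1091 CPM, 1.15 above, adjusted p = 5.24e-06) and with PAM+HMW (835, 930 and 638 CPM, 1.01 above, adjusted p = 7.18e-05). This count was 0 without replicate 3, 5 without replicate 1 and 6 without replicate 2, and 0 after thinning. Without the fold threshold, which 0.805% of all tests passed, 8 of 84 were above both. The added ones were Rsad2 with PAM+HMW, Zymosan+CpGB and PAM+cGAMP, Cmpk2 with Zymosan+CpGB, and Isg20 with PAM+LPS. With PAM+cGAMP, Rsad2 was at 16395, 16898 and 16883 CPM, above every cGAMP library, but its difference from cGAMP was lost under 4 of the alternatives, which are given with the additions of PAM. With PAM+LPS, Isg20 was at 301, 513 and 546 CPM and its lowest library lay inside the LPS range. That Isg20 difference was lost without replicate 2 (adjusted p = 0.555) or 3 (adjusted p = 0.506) and after thinning (0.03, adjusted p = 0.985), with DESeq2 (0.16), with RLE scaling (0.0599) and with scaling by total alone (0.167). With the triplet PAM+HMW+Zymosan, Rsad2 and Cmpk2 were above all 3 of its pairs without a fold threshold, a call that 0.0297% of all tests passed. Its Rsad2 libraries were far apart, at 7135, 2118 and 3981 CPM, and the second lay inside the range of the HMW+Zymosan pair. Without replicate 1, Rsad2 and Cmpk2 no longer exceeded HMW+Zymosan (0.20, adjusted p = 0.662, and 0.13, adjusted p = 0.823).

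**Figure D3:**
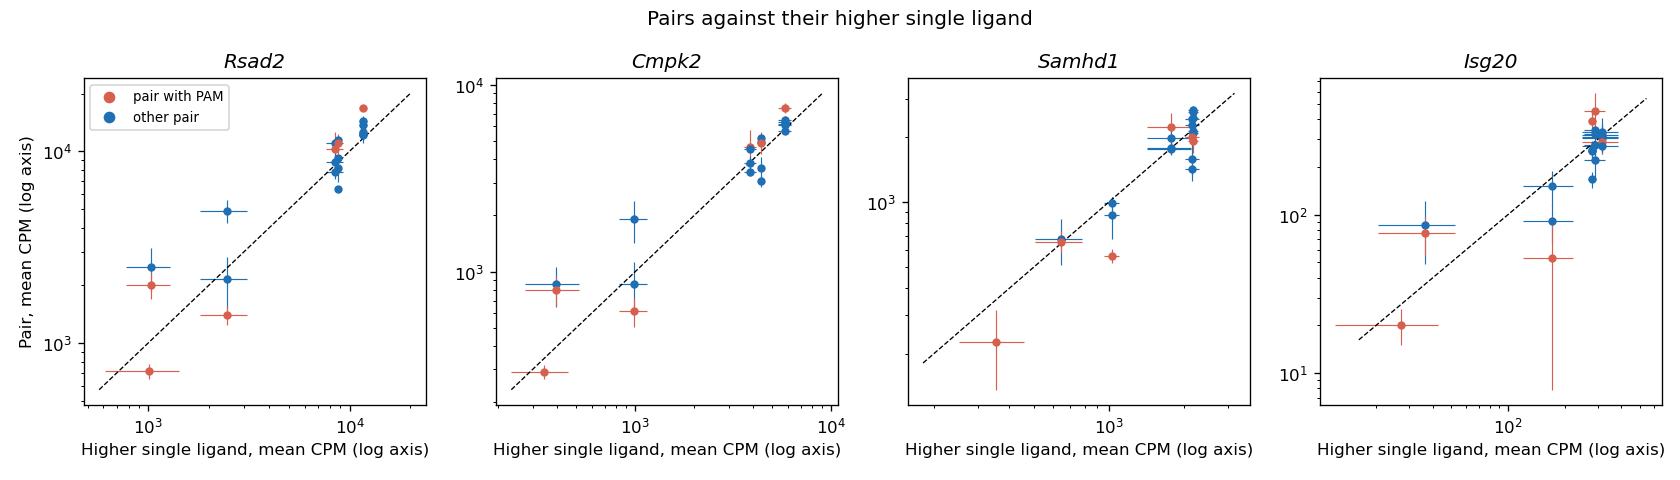
Mean level of each pair (y axis, CPM, log scale) against that of its higher single ligand (x axis, CPM, log scale) for the 4 genes; error bars are SD of 3 libraries and the dashed line marks equal levels. PAM+CpGB lies below the line for all 4 genes, and HMW+Zymosan lies above it.

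cGAMP raised the enzymes in the most tests and PAM in the fewest. Each ligand was added to the other 6 single ligands and to the 15 pairs of them, which gives 21 backgrounds and 84 member tests, called on the adjusted p alone (under 0.05). Adding cGAMP raised a member in 53 tests and lowered 1 (7.54% and 4.22% of all tests). LPS raised 39 and lowered 2 (8.33% and 5.4%), and SeV raised 35 and lowered 0 (3.7% and 1.22%). CpGB raised 18 and lowered 10 (3.4% and 1.99%), Zymosan raised 11 and lowered 7 (3.91% and 1.91%), and PAM raised 8 and lowered 9 (3.95% and 2.35%). HMW raised 12 and lowered 0 (0.631% and 0.0858%). Comparisons of 1 added ligand share its backgrounds, so these counts are not independent. The lowered counts were the least stable: without replicate 3 CpGB lowered 0, PAM 3 and Zymosan 4, without replicate 2 Zymosan lowered 1 and cGAMP 0, and scaling by total alone gave 20 for PAM and 5 for LPS. The raised count of PAM was 4 with DESeq2 or scaling by total alone and 3 after thinning, and that of Zymosan was 7 without replicate 3.

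Averaged over its 21 backgrounds, on the log2 scale cGAMP raised Rsad2 by 1.68 (SE 0.03), Cmpk2 by 1.80 (SE 0.03), Samhd1 by 0.98 (SE 0.03) and Isg20 by 1.09 (SE 0.07), where 27.4% of tested genes were called higher. SeV (19%) and LPS (28.7%) also raised all 4 on average, Rsad2 by 1.14 and 1.21 and Samhd1 by 0.77 and 0.75. HMW (7.61%) raised Rsad2 by 0.21, Cmpk2 by 0.25, Samhd1 by 0.20 and Isg20 by 0.29, and the Isg20 value was lost after thinning (0.23, adjusted p = 0.201) and without replicate 3 (adjusted p = 0.0972). The change of Rsad2 with HMW was above 0 on 9 of 21 backgrounds. PAM lowered Samhd1 by an average of -0.22 (SE 0.03, adjusted p = 2.6e-09; 17.5% of tested genes were called lower). Zymosan lowered Samhd1 by -0.13 (SE 0.03, adjusted p = 0.000765; 20.1%) and raised Rsad2 by 0.20 (adjusted p = 4.37e-08; 20.4%). CpGB (17.2%) raised Rsad2 by 0.08 (adjusted p = 0.0499) and Isg20 by 0.22 (adjusted p = 0.00937) on average, although the change was above 0 on 6 of 21 backgrounds for Rsad2 and 8 of 21 for Isg20. Without replicate 3 both CpGB calls were lost (adjusted p = 0.385 and 0.0538). That of Rsad2 was also lost with DESeq2 (adjusted p = 0.0866), RLE scaling (0.0547), scaling by total alone (0.618) and thinning (0.278), and that of Isg20 with scaling by total alone (0.0514) and without replicate 1 (0.0656), and the Samhd1 call for Zymosan was lost without replicate 2 (adjusted p = 0.0515).

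The effect of cGAMP was large on weak ligands and small on strong ones. Added to PAM, Zymosan or HMW, cGAMP raised Rsad2 by log2 fold changes of 4.38, 3.77 and 3.57, Cmpk2 by 4.67, 4.05 and 4.01, Samhd1 by 2.79, 2.84 and 1.91 and Isg20 by 3.51, 3.52 and 3.11, with every library above the background. On CpGB the changes were 2.34, 2.62, 1.01 and 0.78 in the order Rsad2, Cmpk2, Samhd1, Isg20, all called, though Isg20 lost the call without replicate 1 (adjusted p = 0.232) or 2 (0.419), with DESeq2, with either other scaling and after thinning. On LPS, cGAMP raised Rsad2 by 0.77 (SE 0.15, adjusted p = 3.72e-05) and Cmpk2 by 0.74 (SE 0.14, adjusted p = 6.78e-05), while Samhd1 (0.25, adjusted p = 0.389) and Isg20 (-0.10, adjusted p = 0.906) were not called. On SeV, Cmpk2 was called (0.49, SE 0.15, adjusted p = 0.0471) and Rsad2 was not (0.46, SE 0.15, adjusted p = 0.0707), though the libraries of both lay above those of SeV alone. The Cmpk2 call on SeV was lost with DESeq2 (adjusted p = 0.0764), with either other scaling, after thinning and without any of the 3 replicate numbers. The 1 member that cGAMP lowered was Isg20 on PAM+LPS, from a mean of 453 CPM to 215 (-1.13, SE 0.23, adjusted p = 0.000201), with no overlap of libraries. That call was lost without replicate 2 (-0.90, adjusted p = 0.0584) and after thinning (-0.76, adjusted p = 0.302). On the pair LPS+SeV none of the 4 was called.

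The triplets did not reach higher than the pairs for Rsad2, and the range was widest among the pairs. The highest group mean of Rsad2 was 11645 CPM among single ligands, 16725 among pairs and 15536 among triplets, and the median group mean was 2457, 9262 and 10066 CPM. For Samhd1 the highest means were 2173, 2652 and 2724 CPM and the medians 1027, 1922 and 1822. The lowest means among triplets were those of PAM+HMW+CpGB for Rsad2 (1403 CPM), Cmpk2 (577) and Isg20 (71.7), and of PAM+Zymosan+CpGB for Samhd1 (598). These ranges were not tested, and groups with more ligands hold LPS, SeV or cGAMP more often.

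HMW raised all 4 members when it was added to PAM, Zymosan or PAM+Zymosan, and these were its only calls. On PAM+Zymosan, Rsad2 went from 674, 788 and 679 CPM to 7135, 2118 and 3981, a rise of 2.62 on the log2 scale (SE 0.18, adjusted p = 1.89e-31). Cmpk2 rose by 2.44 (SE 0.20), Samhd1 by 1.94 (SE 0.19) and Isg20 by 2.69 (SE 0.46) on that background, though Isg20 lost the call after thinning (1.65, adjusted p = 0.114). On PAM alone the changes were 1.32, 1.43, 1.24 and 1.65, and on Zymosan alone 1.32, 1.36, 0.92 and 1.73, in the order Rsad2, Cmpk2, Samhd1, Isg20. Without replicate 1 the change of Samhd1 on PAM+Zymosan was 1.25, still called. Without replicate 3 the calls of Cmpk2 (adjusted p = 0.0722), Samhd1 (0.262) and Isg20 (0.768) on Zymosan were lost, that of Isg20 also after thinning (0.89, adjusted p = 0.807), and that of Isg20 on PAM was lost without any of the 3 replicate numbers (adjusted p from 0.052 to 0.23).

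PAM lowered all 4 enzymes when it was added to CpGB. Rsad2 was at 1747, 2997 and 2628 CPM with CpGB and at 1269, 1584 and 1368 with PAM+CpGB, a change of -0.82 (SE 0.17, adjusted p = 0.00044). Cmpk2 changed by -0.70 (SE 0.19, adjusted p = 0.0217), Samhd1 by -0.87 (SE 0.17, adjusted p = 0.000298) and Isg20 by -1.82 (SE 0.40, adjusted p = 0.0011). No PAM+CpGB library of any member overlapped CpGB alone. Isg20 there rests on 11, 3 and 4 UMIs. Without replicate 3 none of the 4 calls remained (adjusted p from 0.0736 to 0.292), and Cmpk2 was also lost without replicate 2 (adjusted p = 0.0506) and Samhd1 after thinning (-0.73, adjusted p = 0.0586). On Zymosan+CpGB, PAM lowered Rsad2 from 4312, 4713 and 5623 CPM to 2587, 2006 and 2073 (-1.14, SE 0.16, adjusted p = 3.87e-09), Cmpk2 by -1.48 and Samhd1 by -0.74, of which Samhd1 was lost without replicate 3 (adjusted p = 0.278) and after thinning (-0.27, adjusted p = 0.724). On cGAMP, PAM raised Rsad2 by 0.52 (SE 0.14, adjusted p = 0.00521) with no overlap of libraries. That call was lost with scaling by total alone (0.25, adjusted p = 0.206), DESeq2 (0.44, adjusted p = 0.0516), thinning (0.35, adjusted p = 0.0631) and without replicate 3 (adjusted p = 0.0518).

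Zymosan and CpGB lowered the enzymes on some backgrounds, those with SeV among them. Zymosan added to PAM+SeV lowered all 4, Rsad2 by -0.55 (SE 0.15, adjusted p = 0.00648), Cmpk2 by -0.69, Samhd1 by -0.87 and Isg20 by -0.89. Rsad2 fell there from 9590, 12220 and 11187 CPM to 7190, 6887 and 8499, with no overlap. Without replicate 2 the calls of Rsad2 (adjusted p = 0.174), Cmpk2 (0.0538) and Isg20 (0.45) on PAM+SeV were lost, that of Isg20 also after thinning (-0.81, adjusted p = 0.141). Zymosan added to SeV alone lowered 1 member, Samhd1 (-0.58, SE 0.15, adjusted p = 0.00418), a call lost without replicate 2 (adjusted p = 0.102) or 3 (0.103). CpGB added to SeV lowered Rsad2 (-0.47, adjusted p = 0.0233), Cmpk2 (-0.52, adjusted p = 0.00958) and Samhd1 (-0.45, adjusted p = 0.0247). These 3 CpGB calls were lost without replicate 3 (adjusted p = 0.27, 0.157 and 0.163). That of Samhd1 was also lost without replicate 2 (adjusted p = 0.316) and with no filter on low counts (0.0773). Without SeV, CpGB lowered Rsad2 (-0.65) and Cmpk2 (-0.74) on LPS+cGAMP and Isg20 (-0.87) on PAM+LPS. Those calls were also lost without replicate 3 (adjusted p = 0.149, 0.0504 and 0.768). On CpGB, Zymosan raised Rsad2 by 0.97 (SE 0.15, adjusted p = 1.83e-07) and Cmpk2 by 0.94 (SE 0.16), whereas the change of Samhd1 (-0.06) was not called.

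Levels of Rsad2 and Cmpk2 followed each other closely over the 64 groups, and those of Samhd1 and Isg20 less closely in rank. The Pearson correlation of their group means of log2 CPM, given as a description over groups that share ligands, was 0.996 between Rsad2 and Cmpk2, each the gene most like the other of all those tested. The other member pairs lay between 0.951 and 0.960. Spearman's rho was 0.978 between Rsad2 and Cmpk2 and from 0.754 (Rsad2 and Isg20) to 0.888 (Cmpk2 and Samhd1) for the others. PAM+cGAMP ranked 1 of 64 groups for Rsad2 and Cmpk2 but 26 for Samhd1 and 25 for Isg20. The genes next most like Rsad2 were Ifit2 (0.988) and Ifit1 (0.978), and those next most like Cmpk2 were Ifit2 (0.986) and Ifih1 (0.979). Samhd1 was most like Ifit2 (0.971), Ifit3 (0.964) and Pyhin1 (0.962), and Isg20 most like Ifit2 (0.975), Pyhin1 (0.969) and Mx2 (0.966).

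Genes of the interferon pathway and of related enzyme classes were counted by lists drawn up by name, with earlier results of these data known. Of 14 interferon pathway genes, all tested, 9 were called higher with SeV, 8 with cGAMP, 7 with LPS, 5 with CpGB and 3 each with PAM, Zymosan and HMW, with 0 lower. Ifnb1, which encodes interferon beta, was called with 2 ligands, SeV (251 ± 8.63 CPM against 12 ± 2.17 in Ctrl, SD, n = 3) and cGAMP (196 ± 78.8). With LPS, Ifnb1 was at 13.4 ± 11.8 CPM and was not called (log2 fold change 0.32, SE 1.04, adjusted p = 0.858). The LPS libraries held 8 UMIs of Ifnb1 in all and the Ctrl libraries 3, so these levels are imprecise. Stat2, an interferon-activated transcription factor, was higher with all 7 ligands, by log2 fold changes from 1.18 with PAM to 3.06 with LPS. Irf9, its partner, was higher with 5 ligands, PAM among them (1.17, adjusted p = 0.0198). Irf7, an interferon-induced factor, was also higher with 5, by 3.58 with LPS and 1.30 with HMW. With PAM and Zymosan, Stat2 was called while 0 of the 4 enzymes were, and that difference between genes was not tested.

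Most nucleotide supply genes had too few counts, with 5 of 19 tested. Of these 5, 2 were higher with each of SeV and cGAMP and 1 with each other ligand, and 1 was lower with LPS. Dck, which encodes deoxycytidine kinase, was higher with 6 of 7 ligands, by 3.36 (SE 0.42) with SeV, though its Ctrl libraries held 6 UMIs in all. Cmpk1, the cytosolic relative of Cmpk2, was higher with 3, by 1.16 at most (cGAMP). Nme1, a nucleoside diphosphate kinase, was lower with LPS (-1.28, adjusted p = 0.007). Of the nucleases 8 of 17 were tested. Of these 8, 4 were higher with LPS, 3 with CpGB, 2 each with PAM, SeV and cGAMP and 1 each with HMW and Zymosan, and 1 was lower with each of LPS, cGAMP and CpGB. Trex1, a DNA exonuclease, was higher with all 7 ligands, by 1.2 with Zymosan to 2.90 with LPS. Xrn2, an RNA exonuclease, was higher with 4, and Zc3h12a, an RNA endonuclease, with 3, by 2.33 with PAM. Of the proteins known to bind viperin 6 of 9 were tested. Of these 6, 2 were higher with each of PAM and CpGB, 1 with each of Zymosan and cGAMP and 0 with LPS, SeV or HMW, and 1 was lower with each of LPS and cGAMP. The shares of all tested genes called higher with each ligand are those given with the members, and those called lower were 9.6% with LPS, 5.91% with cGAMP and 6.27% with CpGB. Vapa was higher with 4 ligands, Fdps, an isoprenoid synthesis enzyme, was higher with 2, and Fam96a, an iron-sulphur cluster assembly factor, was lower with LPS (-1.19) and cGAMP (-1.32).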

How the data were processed

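RNA sequencing gave expression levels in 64 groups of 3 libraries, grouped by their titles. The deposited values are whole-number UMI counts per gene symbol, with no normalization; the submitters' processing notes name BWA 0.7.15 and mm10, and the rule for reads that match several genes is not given in the sources used here. Tests used edgeR 4.0.16 in R 4.3.3. The filterByExpr function kept genes with enough counts (4720 of 23481), libraries were scaled by TMM, and 1 quasi-likelihood model with a coefficient per group was fitted to all libraries (128 residual degrees of freedom). F-tests were adjusted by Benjamini-Hochberg over all tested genes within each of 294 contrasts. CPM used TMM-scaled totals, and correlations used log2 CPM with a prior count of 2.

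Totals of 46564 to 610234 UMIs limit genes of low level such as Isg20. Intervals for counts of 0 take 3 counts as the limit and cover counting error only. The fit was tested on simulated data: it gave unbiased fold changes and found the larger changes of abundant genes, but it missed a large share of changes in genes with few counts, and the criterion for passing was restated for abundant genes after a first one over all genes was missed. The alternatives were RLE or no scaling, no filter, DESeq2, thinning to the lowest total, a replicate block and leaving libraries out. Named genes are the members, the 3 genes most like each, the genes of each list called with the most single ligands (at most 3), and Ifnb1, Stat2, Irf9 and Irf7; 1 gene that the rule names is not reported here. The members and lists were chosen with earlier results of these data known. Promoter sequences are from RefSeq (GRCm38.p6, all 4 members matched) and gene positions from GENCODE M21.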

Additional observations from a re-analysis of the deposited data

Results flagged for a closer look

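Effects of 1 added ligand on different backgrounds were set against each other where their calls differed, in 4 comparisons chosen after the data were seen. The difference itself was tested in the same edgeR fit, with Benjamini-Hochberg adjustment over all tested genes. They are given here because the effect of the ligand differed between the 2 backgrounds.

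PAM changed Rsad2 by 0.52 (log2) on cGAMP and by -0.82 on CpGB, a difference of 1.34 (SE 0.22, adjusted p = 7.08e-07). The same difference was 1.08 for Cmpk2 (adjusted p = 0.000492), 0.69 for Samhd1 (adjusted p = 0.0388) and 1.71 for Isg20 (adjusted p = 0.0103), where 6.69% of all tested genes passed. Without replicate 3 the differences of Samhd1 (adjusted p = 0.486) and Isg20 (0.324) were lost. That of Samhd1 was also lost with DESeq2 (adjusted p = 0.0664), RLE scaling (0.0597), scaling by total alone (0.227), thinning (0.618) and without replicate 1 (0.0672), and that of Isg20 without replicate 2 (0.149).

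Zymosan had a larger effect on CpGB than on SeV for Rsad2, by 1.07 (SE 0.21, adjusted p = 0.000264), and for Cmpk2, by 1.21 (SE 0.22, adjusted p = 4.22e-05), where 1.82% of genes passed. For Samhd1 (0.52, adjusted p = 0.24) and Isg20 (0.62, adjusted p = 0.592) the difference did not pass. Without replicate 3 the Rsad2 (0.90, adjusted p = 0.152) and Cmpk2 (0.98, adjusted p = 0.104) differences were lost.

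HMW had a larger effect on Zymosan than on LPS for all 4 members, by 1.26 for Rsad2 (SE 0.22, adjusted p = 1.81e-05), 1.38 for Cmpk2 (adjusted p = 2.72e-05), 0.94 for Samhd1 (adjusted p = 0.00588) and 1.79 for Isg20 (adjusted p = 0.049), where 1.72% of genes passed. Without replicate 3 none of these 4 passed (Rsad2 0.74, adjusted p = 0.504; Cmpk2 0.93, adjusted p = 0.326). Samhd1 (adjusted p = 0.285) and Isg20 (0.75) were also lost after thinning, and Isg20 without replicate 1 (0.0588). Against LPS, the effect of HMW on PAM was larger by 1.27 for Rsad2 (SE 0.23, adjusted p = 1.49e-05), 1.45 for Cmpk2 (adjusted p = 7.71e-06) and 1.26 for Samhd1 (adjusted p = 3.43e-05), where 1.57% of genes passed, and for Isg20 the difference of 1.71 did not pass (adjusted p = 0.0792). The Isg20 difference passed with DESeq2 (adjusted p = 0.0297), no filter (0.0281) and thinning (3.74, adjusted p = 0.0252), and that of Samhd1 was lost after thinning (0.98, adjusted p = 0.122). Both HMW comparisons use the same LPS libraries.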

How the results depend on the processing

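The 3 member tests above both single ligands in pairs became 6 with no filter on low counts, 1 with scaling by total alone, 0 after thinning and 8 with no fold threshold, and ranged from 0 to 6 on leaving out 1 replicate number; the cause was not tested. The 17 three-way interactions ranged from 10 to 18 on leaving out 1 replicate number, and the 21 mean effects of adding a ligand became 12 when a log2 fold change of at least 0.5 was also required; the first cause was not tested and the second follows from the added threshold. The other totals over all ligands or combinations stayed within 1.5 times of their values, with raised and lowered calls on adding a ligand counted together. Lowered calls taken alone did not, and neither did all counts per added ligand. The 10 lowered by CpGB, 9 by PAM and 7 by Zymosan fell to 0, 3 and 4 without replicate 3, and the 2 lowered by LPS became 4 after thinning. Single calls behind the counts of 1 were lost under several alternatives, as given with Cmpk2 for HMW and with Samhd1 for PAM+Zymosan and PAM+LPS. Of 454 single values against Ctrl 431 kept their direction and call, as did 1469 of 1575 on adding a ligand and 391 of 414 interactions, 178 of 189 mean effects and 123 of 144 differences of 2 additions; 6 of the 16 differences kept their call under every alternative run. Most losses came without replicate 3 (55 of 287 values) and after thinning every library to the lowest total (39 of 287), and leaving out a replicate also removes 64 libraries from the fit. Sign changed for Isg20 with PAM (0.31), which was -1.29 after thinning, -0.50 without replicate 3 and from -0.39 to 1.09 on leaving out 1 Ctrl library, the lowest without Ctrl replicate 3. It also changed for Isg20 with Zymosan (0.46), at -0.016 after thinning, from -0.23 (without Ctrl replicate 3) to 1.24 on leaving out 1 Ctrl library and -0.05 without Zymosan replicate 2; none of these was called. Samhd1 on adding Zymosan to PAM+HMW ranged from -0.17 without replicate 1 to 0.88 without replicate 2. Over all tested genes, RLE scaling shifted the median log2 fold change by -0.16 and scaling by total alone by -0.37. Deviations of same-numbered libraries of different groups had a median r of 0.008, beside -0.004 for libraries of other numbers. Most libraries, 112, nevertheless correlated best with one of their own number. Whether that count exceeds the one expected without a shared effect of the number was not tested. The median r was low, so numbers were not taken as pairs in the main fit. With replicate number as a block, 287 of 287 single values kept their call, member changes on adding a ligand went from 205 to 214, those lowered by LPS from 2 to 4 and three-way interactions from 17 to 18. Depth limits Isg20, whose Ctrl libraries held at most 3 UMIs.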
